A study of Mus musculus with 2 samples.

Results

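The 10 genes described here encode enzymes and carriers of mitochondrial fatty acid beta-oxidation: Cpt1a, Slc25a20 and Cpt2 of the carnitine shuttle, the acyl-CoA dehydrogenases Acadvl, Acadl and Acadm, the electron carrier subunit Etfa, the enoyl-CoA hydratase Echs1, and Hadha and Hadhb, the subunits of the trifunctional protein. They were taken by gene symbol, 10 of the 32285 features in each library, and every one of them was counted in both libraries. The study profiled RNA from single regulatory T cells (Tregs) with 10x Genomics droplets, after sorting YFP+7AAD- cells, which the study's supplementary methods also describe as CD4+, from spleens of 7-day-old C57BL/6J mice. One library came from WT mice and the other from KO (Zfp335fl/fl Foxp3-Cre) mice, which lack the zinc finger protein Zfp335 in cells that have switched on Foxp3. Per the study's methods, the WT mice carry Foxp3-Cre as well, so both genotypes share the Cre and its YFP reporter, which mark cells with Foxp3 expression, and the KO differs by the floxed Zfp335 alleles. How many mice were pooled into a library is not given in the sources used here. Each genotype has 1 library and so no replicate, and neither tests nor p-values are given. A KO to WT difference between these libraries cannot be told apart from a difference between the mice or the preparations.

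Beta-oxidation breaks long-chain fatty acids down inside mitochondria. The carnitine shuttle carries the acyl chain across the inner membrane, and a repeated cycle of dehydrogenation, hydration, a further dehydrogenation and thiolysis then releases acetyl-CoA and passes electrons to the respiratory chain. Resting lymphocytes and Tregs are known to draw on this oxidative route, while activated conventional T cells rely more on glycolysis.

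Kept barcodes had 300 or more genes, and no more than 5% of their unique molecular identifiers (UMIs) came from mitochondrially encoded genes. This left 8053 WT and 13767 KO barcodes with 54204367 and 57649800 UMIs. The mitochondrial limit removed 44.6% of WT and 24.1% of KO barcodes. The KO barcodes were shallower, with a median of 2713 UMIs against 5061. Levels are given as counts per 1000000 UMIs (CPM) with exact Poisson 95% intervals, and KO to WT ratios with exact conditional binomial 95% intervals, both of which cover counting error only. A ratio at or below the inverse of 1.5, or at or above 1.5, is called past 1.5-fold. Clustering without the 10 genes gave 14 clusters, of which 9 carried T cell receptor genes and are called T-lineage (7521 WT and 12967 KO barcodes). In them Foxp3 stood at 40.6 CPM in WT and 44.4 CPM in KO, while in the other lineages of the sort (erythroid-like, myeloid progenitor-like, neutrophil-like and B cell-like, 532 and 800 barcodes) it stood at 5.55 and 9.57 CPM. The T-lineage pool includes unnamed clusters led by granule genes, by Mpo and Elane, and by the macrophage genes C1qa, C1qb and C1qc (36 WT and 5 KO barcodes). Zfp335, the targeted gene, differed in the direction of the labels: T-lineage barcodes held 8.17 CPM in WT and 0.782 CPM in KO, a ratio of 0.0958 (95% interval 0.0677 to 0.132). Haemoglobin genes made up 0.0499% of T-lineage UMIs in WT and 0.315% in KO. Leaving haemoglobin, granule, ribosomal RNA-like and mitochondrial genes out of the total gave T-lineage ratios of 0.478 for Hadha, 0.506 for Acadl and 0.624 for Cpt1a, each within the interval of the ratio given below. Of all barcode sequences, 70 occurred in both libraries.

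Hadha and Hadhb lie head to head on chromosome 5 (GRCm38), Hadha on the minus strand at chr5:30118304-30155162 and Hadhb on the plus strand at chr5:30155248-30184593 in the GENCODE annotation, with 85 bases between them. Their promoter windows are shown because both genes had lower levels in the KO library and because the windows, each running from 250 bases before to 50 bases after the RefSeq start, share 228 bases read on opposite strands. Both sequences are from RefSeq on build GRCm38.p6, at chr5:30154931-30155230 on the minus strand for Hadha and chr5:30155003-30155302 on the plus strand for Hadhb. Capitals mark GGGCGG, the GC box bound by Sp1, or its reverse complement.
Hadha: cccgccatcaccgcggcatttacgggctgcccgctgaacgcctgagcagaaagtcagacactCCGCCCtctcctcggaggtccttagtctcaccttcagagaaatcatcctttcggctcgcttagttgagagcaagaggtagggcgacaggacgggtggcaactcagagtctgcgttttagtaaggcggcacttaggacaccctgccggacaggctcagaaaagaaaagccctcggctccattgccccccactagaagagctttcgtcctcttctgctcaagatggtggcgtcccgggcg
Hadhb: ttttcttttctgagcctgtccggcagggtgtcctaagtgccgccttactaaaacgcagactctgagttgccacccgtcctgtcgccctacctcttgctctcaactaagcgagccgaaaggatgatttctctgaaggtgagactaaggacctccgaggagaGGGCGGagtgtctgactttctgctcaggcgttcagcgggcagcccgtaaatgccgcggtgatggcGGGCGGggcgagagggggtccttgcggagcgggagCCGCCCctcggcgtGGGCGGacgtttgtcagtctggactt
The GC box occurred 4 times in the Hadhb window and once in the Hadha window, within the shared stretch. Of the 10 windows, 7 held it on either strand, as did 35.7% of all 32851 RefSeq promoter windows of this length. CCAAT occurred in the windows of Cpt1a and Etfa and in 37.4% of all windows. Another 4 motifs were searched on both strands and occurred in 0 of the 10 windows: the E-box CACGTG (7.15% of all windows), the YY1 core GCCATNTT (6.05%), the TATA box TATAAA (13.6%) and the estrogen-related receptor element TCAAGGTCA (0.423%). The Hadha and Hadhb windows were rich in CpG, with 0.778 and 0.878 of the CpG number that their base composition would give, against a median of 0.384 over all windows. These matches describe letters in the windows and not binding.

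Over T-lineage barcodes, Hadha, Acadl and Cpt1a were lower in the KO library by more than 1.5-fold, and Echs1 was the single gene with a ratio above 1. The ratios ran from 0.479 for Hadha to 1.11 for Echs1. Thus 3 of the 10 genes were past 1.5-fold lower and 0 past 1.5-fold higher, while 11.0% of the 11255 genes with at least 100 UMIs were past 1.5-fold lower and 5.10% past 1.5-fold higher. On the log2 scale the 10 ratios had a median of -0.35, beside -0.07 over all genes tested. Over all kept barcodes the same 3 genes were past 1.5-fold lower, where 11.3% of all genes were. At a looser threshold, a ratio of 0.8 or below, 5 of the 10 genes (Hadhb and Acadm in addition) were counted over either pool, where 24.7% of all genes were over all kept and 23.5% over T-lineage barcodes. The study first selected Hadha on these same libraries, so its low ratio here is not independent evidence. The study also reported lower Hadha in Zfp335-deficient Tregs of other mice, which these libraries do not hold. Its other evidence, also outside these libraries, was Zfp335 binding at the Hadha promoter by ChIP-Seq, with a luciferase assay. It further reported that Hadha overexpression rescued the frequency of ICOS+ Tregs.

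**Figure D1:**
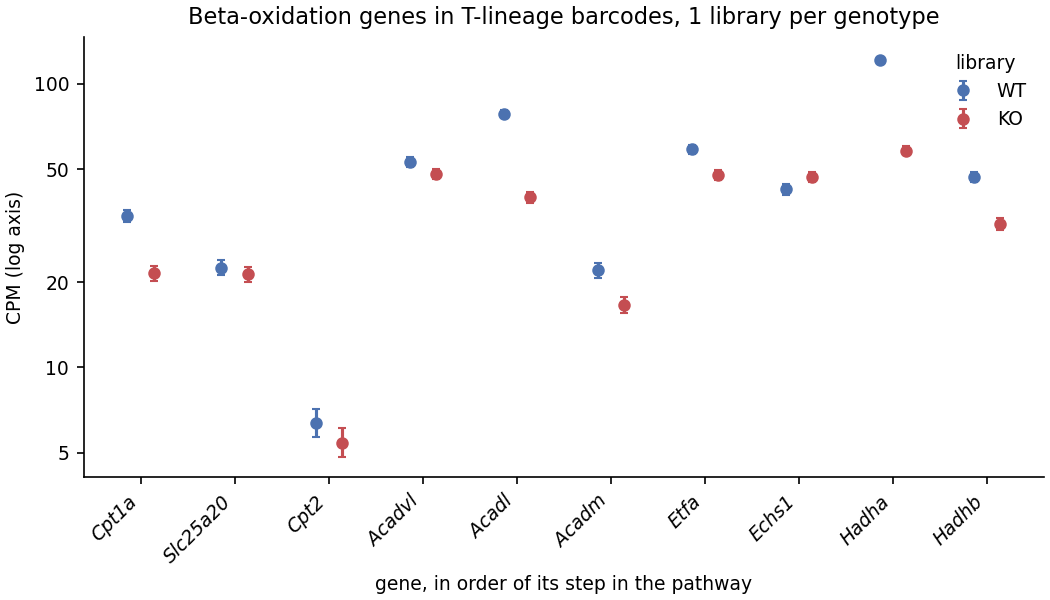
Level of each of the 10 genes in T-lineage barcodes, in CPM on a log axis, with 1 point per library (blue WT, red KO) and exact Poisson 95% intervals for counting error. The points of Hadha (121 and 58.2 CPM) and Acadl (78.4 and 39.8 CPM) lie farthest apart, and for Echs1 the KO point lies above the WT point.

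**Figure D2:**
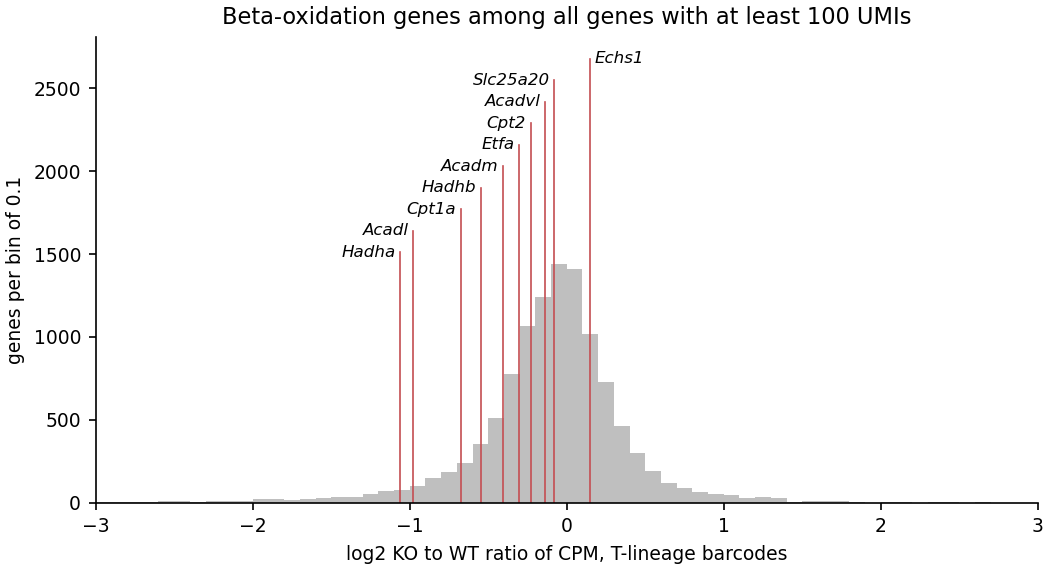
Histogram of the log2 KO to WT ratio of CPM over the 11255 genes with at least 100 UMIs in T-lineage barcodes (grey, bins of 0.1), with the 10 genes marked by red lines. Hadha and Acadl lie in the lower tail, and Slc25a20, Acadvl and Echs1 lie in the body of the distribution.

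Cpt1a, the enzyme of the outer mitochondrial membrane that joins the acyl chain to carnitine and so controls entry to the pathway (chr19:3322334-3385733, plus strand), stood at 34.3 CPM (95% interval 32.6 to 36.0) in WT T-lineage barcodes and at 21.4 CPM (20.2 to 22.7) in KO ones. Its ratio was 0.626 (0.580 to 0.675). The next carrier, Slc25a20, which exchanges acylcarnitine for carnitine across the inner membrane (chr9:108662088-108684641, plus strand), had nearly the same level in both libraries, at 22.5 CPM in WT and 21.3 CPM in KO, with a ratio of 0.947 (0.870 to 1.03). Cpt2, which returns the acyl chain to CoA in the matrix (chr4:107903981-107923610, minus strand), was the most thinly counted of the 10, with 310 WT and 285 KO UMIs. Its levels were 6.38 and 5.44 CPM and the upper end of the interval of its ratio, 0.853, reached 1. The ratio was 0.994 when each barcode weighed equally and 1.26 when the KO clusters were weighted to the WT makeup. Over this pool as captured, the enzyme of the first shuttle step was therefore past 1.5-fold lower and the carrier and the last enzyme were not. The same weighting gave Cpt1a a ratio of 0.777, short of 1.5-fold.

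Among the acyl-CoA dehydrogenases, which take the first electrons from chains of different length, Acadl had the lowest ratio over the T-lineage pool. With the KO clusters weighted to the WT makeup, the ratios of Acadl and Acadm lay close together, at 0.811 and 0.856. Acadl, the long-chain enzyme (chr1:66830839-66863277, minus strand), was at 78.4 CPM (75.9 to 80.9) in WT and 39.8 CPM (38.1 to 41.6) in KO, a ratio of 0.508 (0.481 to 0.536). Acadm, the medium-chain enzyme (chr3:153922357-153944632, minus strand), was at 22.0 CPM in WT and 16.6 CPM in KO, a ratio of 0.754 (0.689 to 0.826). Acadvl, the very-long-chain enzyme bound to the inner membrane (chr11:70010183-70015411, minus strand), was at 52.9 and 48.2 CPM, a ratio of 0.910 (0.861 to 0.962). The small difference of Acadvl did not hold its direction: the ratio was 1.01 when each barcode weighed equally and 1.09 when the KO clusters were weighted to the WT makeup.

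Etfa, the alpha subunit of the flavoprotein that takes electrons from these dehydrogenases (chr9:55454508-55512243, minus strand), was at 58.7 CPM in WT and 47.7 CPM in KO, with a ratio of 0.811 (0.769 to 0.856). Echs1, the hydratase that acts on short and medium chains (chr7:140105710-140116476, minus strand), was higher in the KO library, at 42.5 CPM (40.6 to 44.3) in WT and 47.0 CPM (45.1 to 48.9) in KO. Its ratio of 1.11 (1.04 to 1.17) was short of 1.5-fold and lay above 75.5% of all genes tested.

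Hadha, the alpha subunit of the trifunctional protein, carries the hydratase and hydroxyacyl-CoA dehydrogenase activities for long chains. It had 5900 UMIs in WT T-lineage barcodes and 3050 in KO ones, or 121 CPM (118 to 124) and 58.2 CPM (56.1 to 60.3). The ratio was 0.479 (0.459 to 0.501), and 4.10% of the genes tested had a lower one. Hadhb, the beta subunit with the thiolase activity of the same complex, stood at 46.8 CPM (44.9 to 48.8) in WT and 32.1 CPM (30.6 to 33.7) in KO, a ratio of 0.685 (0.643 to 0.730), just short of 1.5-fold. Both subunits were thus lower in KO, and Hadha by more: the Hadha ratio was 0.70 (0.648 to 0.756) of the Hadhb ratio. Over this pool the Hadha ratio was 0.944 (0.880 to 1.01) of the Acadl ratio. That interval holds 1, unlike those within the T cell states given below. The Hadha ratio was lower than that of each of the other 7 genes, from 0.433 (0.402 to 0.466) of the ratio of Echs1 to 0.766 (0.702 to 0.837) of that of Cpt1a.

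The T-lineage pool holds cells in several states, so each gene was next followed within clusters named from their leading genes: resting Treg-like (2839 WT and 4887 KO barcodes), effector Treg-like (2255 and 94), activated Treg-like (667 and 1297) and S-phase cycling-like (632 and 1067). Hadha was past 1.5-fold lower in KO in all 4. In the WT library its level was similar in the 4 states, at 119, 128, 106 and 123 CPM in that order, and in the KO library it was 69.5, 66.9, 47.6 and 49.6 CPM. The ratios were 0.585 (0.543 to 0.630) in the resting, 0.523 (0.393 to 0.683) in the effector, 0.448 (0.399 to 0.502) in the activated and 0.404 (0.365 to 0.448) in the S-phase cluster. No WT interval overlapped the KO interval of its own state. The ratio in the activated cluster was 0.765 (0.667 to 0.878) of the resting one, and in the S-phase cluster 0.692 (0.609 to 0.785) of it, while the effector one, resting on 55 KO UMIs, was 0.894 (0.665 to 1.18) of it. At a clustering resolution of 1.0 in place of 0.5 the barcodes named resting Treg-like, 1301 in WT and 2468 in KO, gave a ratio of 0.702 for Hadha, which is no longer past 1.5-fold. They formed 2 clusters, with ratios of 0.778 and 0.476. The other barcodes of the resting cluster fell mostly into 2 clusters that took no name, one mostly of WT barcodes (1289 and 392) with a ratio of 0.540 and one mostly of KO barcodes (261 and 2022) with a ratio of 0.620. The S-phase cluster was also made up differently in the libraries. At the resolution of 1.0 an S-phase cycling-like cluster took 27.1% of its WT and 68.2% of its KO barcodes, and a cluster led by Gzmb, Gzma, Cxcr3 and Klrg1 beside histone genes took 66.8% and 6.19%. The Hadha ratios in these clusters were 0.482 (0.403 to 0.578) and 0.349 (0.263 to 0.456). The S-phase ratios of every gene therefore compare differently composed barcodes.

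In this clustering Hadhb too had the lower KO level in each of these states, with a narrower gap. Its WT levels were 47.4 CPM in the resting, 51.9 CPM in the effector, 32.0 CPM in the activated and 47.6 CPM in the S-phase cluster, and its KO levels were 37.8, 36.5, 23.0 and 28.6 CPM. The ratios were 0.797, 0.703, 0.720 and 0.60, so that the S-phase cluster alone was past 1.5-fold. The effector ratio rests on 30 KO UMIs, and its interval of 0.472 to 1.01 holds 1. At the resolution of 1.0 the resting Treg-like barcodes gave a ratio of 0.975 for Hadhb. They came from 2 clusters, with ratios of 1.08 (0.890 to 1.30) and 0.629 (0.403 to 1.03). In the resting cluster the Hadha ratio was 0.734 (0.641 to 0.839) of the Hadhb ratio. In the activated cluster it was 0.622 (0.499 to 0.775) of it and in the S-phase cluster 0.674 (0.564 to 0.805). In the effector cluster it was 0.743 (0.465 to 1.21) of it, an interval that holds 1.

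**Figure D3:**
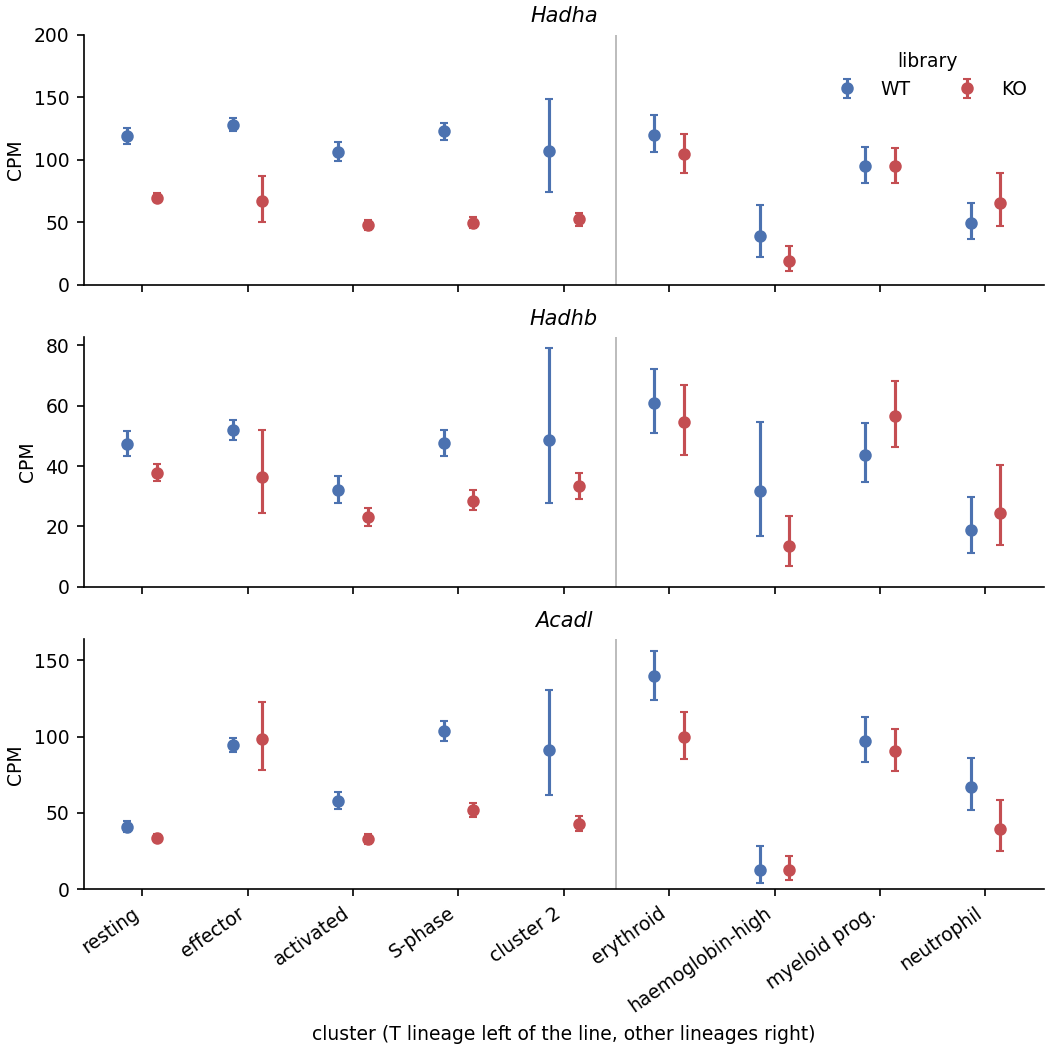
Level in CPM of Hadha, Hadhb and Acadl by cluster (blue WT, red KO, bars are exact Poisson 95% intervals), T-lineage clusters left of the line and other lineages right of it. For Hadha the WT points of the 5 T-lineage clusters shown sit between 106 and 128 CPM and the KO points between 47.6 and 69.5 CPM, while in the myeloid progenitor-like cluster both sit near 95 CPM. For Acadl the resting points are low and the effector points high in both libraries.

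Acadl followed cell state more than Hadha did. In the WT library it was lowest in the resting cluster, at 41.0 CPM, and higher in the activated (58.0 CPM), effector (94.5 CPM) and S-phase (103 CPM) clusters. The S-phase level was 2.52 times (2.26 to 2.82) and the effector level 2.30 times (2.08 to 2.55) the resting one. The S-phase level depended on the clustering. At the resolution of 1.0 the S-phase cycling-like WT barcodes stood at 64.8 CPM. Those of the cluster led by Gzmb, Gzma, Cxcr3 and Klrg1 beside histone genes stood at 111 CPM. The KO library kept the difference between effector (98.5 CPM) and resting (33.6 CPM) barcodes, but its activated barcodes, at 32.9 CPM, lay within the interval of the resting level. The S-phase KO level was 51.7 CPM. The ratio of Acadl was therefore 0.820 (0.728 to 0.924) in the resting and 1.04 (0.824 to 1.30) in the effector cluster, against 0.567 (0.490 to 0.656) in the activated and 0.50 (0.451 to 0.554) in the S-phase cluster. Other clusterings moved these values: centring each gene within its library gave 0.591 for the effector Treg-like barcodes, and the resolution of 1.0 gave 0.810 for the S-phase cycling-like ones. In the resting cluster the Hadha ratio was 0.713 (0.619 to 0.821) of the Acadl ratio, and in the effector cluster 0.501 (0.347 to 0.719) of it. In the activated cluster it was 0.789 (0.655 to 0.951) of it and in the S-phase cluster 0.809 (0.699 to 0.936).

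The remaining genes were mostly short of 1.5-fold within states. Of the 10 genes, 1 (Hadha) was past 1.5-fold lower in the resting cluster, where 10.5% of all genes tested were, and 1 (Hadha) in the effector cluster, where 14.6% were. In the activated cluster 3 of the 9 genes with enough UMIs were (Hadha, Acadl and Cpt1a), beside 7.84% of all genes, and in the S-phase cluster 4 of 10 were (Hadha, Hadhb, Acadl and Cpt2), beside 7.20%. Acadm had ratios of 0.738 in the resting, 1.00 in the effector, 0.716 in the activated and 0.785 in the S-phase cluster. The resting and effector values, the latter on 19 KO UMIs, were below those of Acadl and the others above. Cpt1a had ratios of 0.681 in the resting, 0.862 in the effector, 0.665 in the activated and 0.743 in the S-phase cluster. Its activated value lay at the edge of the threshold and was 0.687 at the resolution of 1.0. It was also lowest in the activated cluster of the 4 in both libraries, at 22.1 CPM in WT and 14.7 CPM in KO.

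Some of the other enzymes had higher KO levels in resting barcodes. There Echs1 was at 33.5 CPM in WT and 42.6 CPM in KO, a ratio of 1.27 (1.13 to 1.44), which exceeded the ratios of 93.3% of the genes tested. Its ratio was 1.09 in the activated and 0.981 in the S-phase cluster. At the resolution of 1.0 the resting Treg-like barcodes gave a ratio of 1.17 for Echs1. They came from 2 clusters, with ratios of 1.13 (0.913 to 1.39) and 1.53 (0.810 to 3.26), and both intervals hold 1. Cpt2 was at 4.36 and 5.45 CPM in the resting cluster, where the interval of its ratio ran from 0.888 to 1.78. In the effector cluster its ratio was 1.70 (0.799 to 3.23), on 10 KO UMIs and the single value past 1.5-fold higher among the 10 genes in these 4 states, where 7.80% of all genes were. With genes centred within their library that effector value was 0.931. In the S-phase cluster the ratio of Cpt2 was 0.550 (0.385 to 0.780). Etfa, like Acadl, was higher in cycling than in resting WT barcodes, at 76.3 against 39.4 CPM. In the S-phase cycling-like WT barcodes at the resolution of 1.0 it was at 65.4 CPM. Its ratio was 0.979 (0.871 to 1.10) in the resting and 0.731 (0.657 to 0.814) in the S-phase cluster. In the S-phase cycling-like barcodes at the resolution of 1.0 the ratio was 0.894. Slc25a20 kept ratios between 0.898 and 1.09, and the interval of each held 1.

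**Figure D4:**
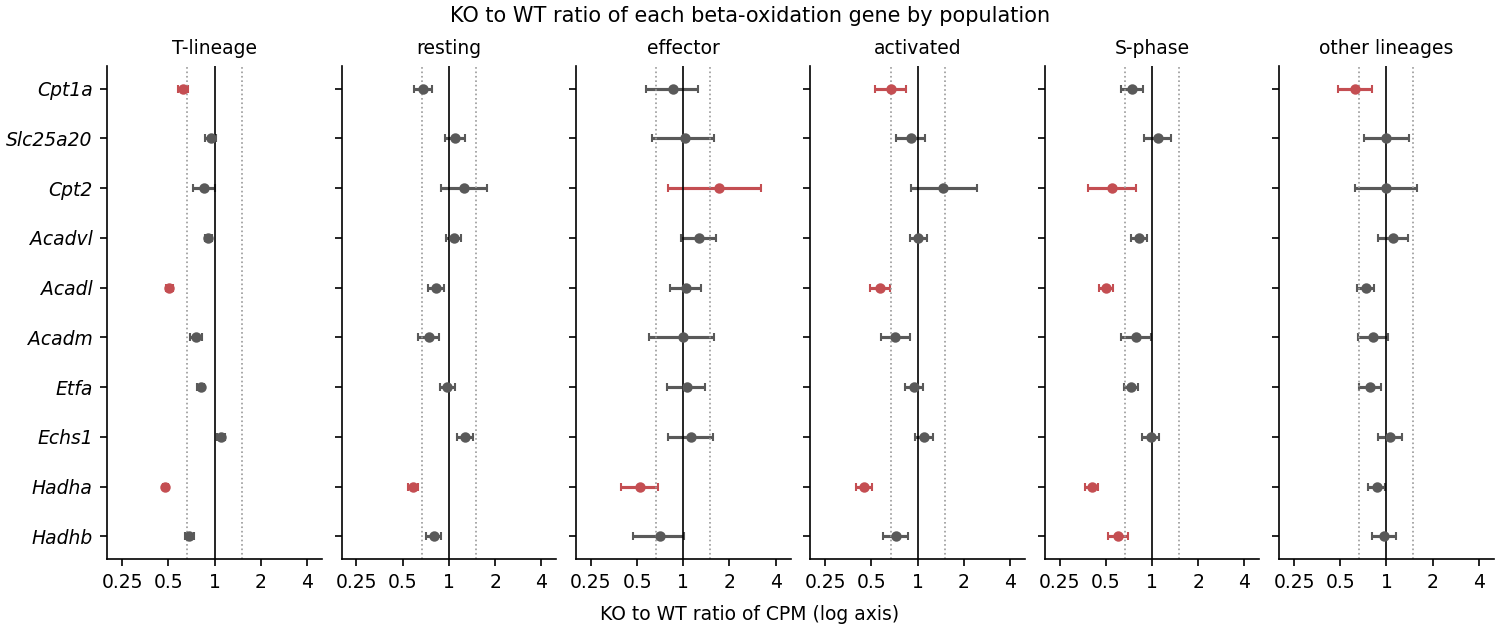
KO to WT ratio of CPM on a log axis for each of the 10 genes in T-lineage barcodes, 4 T cell states and the other lineages, with exact 95% intervals for counting error. Red points are past 1.5-fold (dotted lines), and Hadha is the gene that is red in the T-lineage panel and in all 4 states.

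The unnamed cluster 2 held 213 WT and 4226 KO barcodes of low depth and was led by haemoglobin genes, which made up 1.02% of its KO UMIs. In it the levels of Hadha were 107 CPM in WT and 52.2 CPM in KO, a ratio of 0.490 (0.346 to 0.713), and those of Acadl 91.3 and 42.9 CPM, a ratio of 0.470 (0.323 to 0.708). The WT values rest on 35 and 30 UMIs. The KO level of Hadha was higher in 2 further unnamed T-lineage clusters, at 87.8 CPM in cluster 7, on 6 UMIs, and 83.6 CPM in cluster 9, on 51 UMIs. Cluster 9 was led by myeloid progenitor genes such as Mpo and Elane. In the unnamed cluster 6, led by granule genes such as Ngp and Ltf, the KO level of Hadha was 52.9 CPM on 69 UMIs. The ratio of Hadha over the 4 named T cell states alone was 0.485, close to that over all T-lineage barcodes, and without the clusters led by granule, Mpo or C1q genes it was 0.478.

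The libraries differed in how their UMIs were spread over states. Effector Treg-like barcodes held 39.3% of the T-lineage UMIs of WT and 1.63% of those of KO, among clusters with at least 50 barcodes in each library, and resting ones held 23.6% and 40.7%. Weighting the KO clusters to the WT makeup left the ratio of Hadha at 0.505 and that of Hadhb at 0.710. It brought the ratio of Acadl from 0.508 to 0.811 and that of Cpt1a from 0.626 to 0.777. After this weighting 1 of the 10 genes, Hadha, was past 1.5-fold lower, beside 10.7% of all genes tested. The weighted KO levels rest largely on the 94 effector Treg-like KO barcodes, and the clusters themselves depend on the settings of the clustering.

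**Figure D5:**
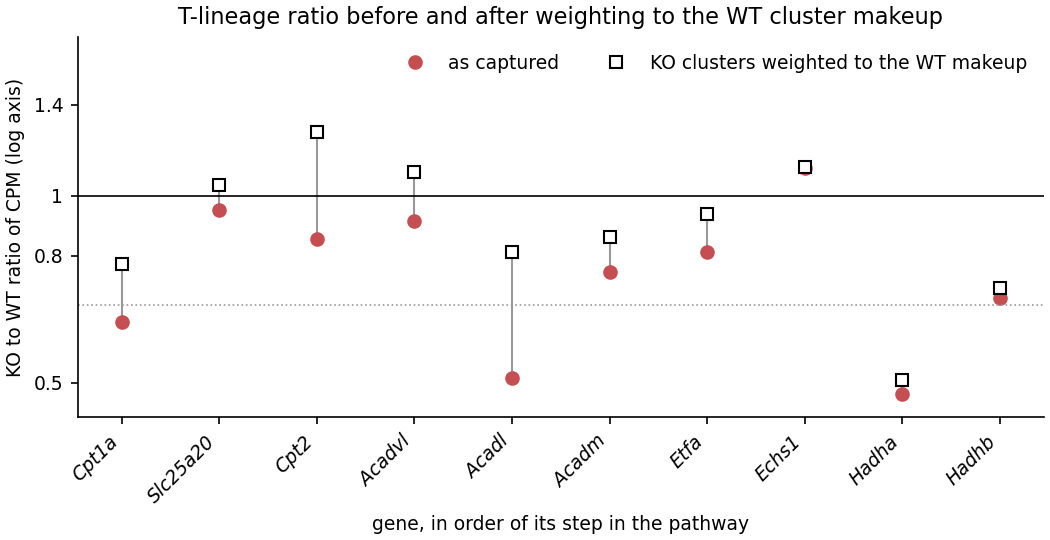
KO to WT ratio of CPM over T-lineage barcodes on a log axis, as captured (red circles) and with KO clusters weighted to the WT cluster makeup (open squares), for each of the 10 genes. The dotted line marks 1.5-fold lower. Acadl moves from 0.508 to 0.811 and Cpt1a from 0.626 to 0.777, both across the line, while Hadha stays below it at 0.505.

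Cells of other lineages were present although the sort gated on CD4 and YFP, and their Hadha levels lay closer together. Whether they carry the deletion was not tested. Hadha was at 94.0 CPM (86.1 to 102) in WT and 81.3 CPM (73.8 to 89.4) in KO over these lineages, a ratio of 0.865 (0.760 to 0.985). In the myeloid progenitor-like cluster the levels were 95.2 and 94.6 CPM, a ratio of 0.994 (0.805 to 1.23), which was 1.70 times (1.36 to 2.13) the ratio in resting Treg-like barcodes. In the larger erythroid-like cluster they were 120 and 104 CPM, a ratio of 0.867 (0.711 to 1.06), 1.48 times (1.20 to 1.83) the resting one. The neutrophil-like and the haemoglobin-high erythroid-like clusters had ratios of 1.33 (0.847 to 2.06) and 0.486 (0.231 to 1.03), each on fewer than 50 UMIs per library. Of the 9 genes with enough UMIs over the other lineages, 1 (Cpt1a) was past 1.5-fold lower, beside 6.59% of all genes tested. Cpt1a was at 29.9 CPM in WT and 18.7 CPM in KO there, and its ratio of 0.627 (0.484 to 0.810) was about that in T-lineage barcodes. Acadl was lower as well, with a ratio of 0.731 (0.640 to 0.834), and Hadhb was nearly level at 0.968 (0.806 to 1.16). Zfp335 itself was at 6.80 CPM in WT and 3.25 CPM in KO in these lineages, on 38 and 17 UMIs, and the T cell gene Cd3d was at 140 and 231 CPM, against 1109 and 974 CPM in T-lineage barcodes. The part of T cell RNA in these values was not tested.

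After thinning to equal depth, the share of barcodes with a UMI gave the same order as CPM for Hadha, Acadl and Echs1 over T-lineage barcodes. Of T-lineage barcodes, 44.3% in WT and 18.7% in KO held a Hadha UMI, at median depths of 5011 and 2703 UMIs. With each barcode thinned to 1000 UMIs, and 1083 WT and 1069 KO shallower barcodes left out, the shares were 10.4% (9.64% to 11.1%) of 6438 and 5.81% (5.39% to 6.24%) of 11898 barcodes. No lineage in the sort is known to lack the gene, so a background share could not be set. Beside T-lineage barcodes, the haemoglobin-high erythroid-like cluster had 2.41% (0.293% to 8.43%) of 83 WT and 1.03% (0.125% to 3.67%) of 194 KO thinned barcodes, or 13.3% and 7.37% before thinning, at median depths of 4190.5 and 2434 UMIs. For Acadl the thinned shares over T-lineage barcodes were 6.01% and 3.92%, and in the resting cluster 3.58% and 3.50%. For Echs1 the thinned shares over T-lineage barcodes were 3.84% and 4.50%, while before thinning they were 20.5% and 15.5%, the opposite order.

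A list of 61 further gene symbols, 60 of them among the features, was counted in the same way. It covers fatty acid oxidation and activation, related acyl-CoA steps and their regulation. Of the 45 with at least 100 UMIs in T-lineage barcodes, 6 were past 1.5-fold lower in KO and 0 past 1.5-fold higher, where 11.0% and 5.10% of all genes tested were. Their median log2 ratio was -0.10, beside -0.07 over all genes tested. Etfb, the partner of Etfa, was at 256 CPM in WT and 164 CPM in KO, a ratio of 0.639 (0.621 to 0.657). Eci1, which moves double bonds of unsaturated chains into place for the cycle, was at 41.0 and 23.5 CPM, a ratio of 0.573 (0.533 to 0.615). Crot, a carnitine acyltransferase of peroxisomes, had a ratio of 0.626 (0.572 to 0.685), and Crat, which acts on acetyl groups, one of 0.644 (0.473 to 0.873). Echdc2 had a ratio of 0.629 on 90 WT and 61 KO UMIs. Pparg, a nuclear receptor of lipid metabolism, had the lowest ratio of the list, 0.0515 (0.0231 to 0.10), on 162 WT and 9 KO UMIs. Over this pool the subunits of the electron-transferring flavoprotein thus both had lower levels in KO, Etfb past 1.5-fold and Etfa not. Among the named T cell states, Etfb was past 1.5-fold lower in the S-phase cluster alone. Eci1 was past it in the activated and S-phase clusters. Crot, Crat, Echdc2 and Pparg were past it in none of these states, or had too few UMIs there. How far the makeup of the libraries enters the pooled ratios of these genes was not tested.

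Over the 14 profiles formed by T-lineage clusters and libraries with at least 50 barcodes, the 5 genes whose log2(CPM + 1) was most like that of Hadha, among 8712 genes, were Suclg1 (Pearson r = 0.934), Atp5l (0.929), Dctn1 (0.922), Dync1li2 (0.921) and Aimp1 (0.915). Suclg1 encodes a subunit of succinyl-CoA ligase of the citric acid cycle and Atp5l a subunit of ATP synthase. Their T-lineage ratios were 0.482 and 0.645. The study selected both genes together with Hadha on these libraries, so their likeness to it is not independent evidence. Of the other 9 beta-oxidation genes, Hadhb came closest to Hadha, at rank 37 with r = 0.795, followed by Acadl with 0.598 and Cpt1a with 0.429, and Echs1 had the lowest value, -0.33. The profiles share the 2 libraries and their depth, so these values describe the libraries and carry no p-value.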

How the data were processed

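The authors deposited filtered 10x gene-by-barcode matrices of UMI counts, whole numbers and not normalized, made with Cell Ranger 5.0.1 on mm10 per the submitters' processing notes. UMIs count tags at transcript ends, so no per-length values were made and levels of different genes were not ranked. Barcodes were filtered as in the study (at least 300 genes, at most 5% mitochondrial UMIs). Doublets were kept, and their removal was an alternative (highest Scrublet scores, scanpy 1.11.5, 5% of WT and 8% of KO barcodes). Counts were scaled to 10000 per barcode and log-transformed, and 2000 variable genes without the 10 genes, the pathway list, Zfp335, and mitochondrial, haemoglobin and sex-linked genes gave 30 principal components, 20 neighbours and Leiden clusters (igraph 0.11.9, resolution 0.5). A cluster was called T-lineage where its mean CPM of 6 T cell receptor genes reached 50% of the median cluster. It took a class name where that class had the most markers among its 10 leading genes and at least 3 raised markers. That naming rule was set after the clusters were seen. UMIs were then summed over barcodes of a cluster or pool in each library, and CPM, which shows shares of RNA and not RNA per cell, and intervals were computed with scipy 1.17.1. The ratio script was tested on simulated counts. Alternatives varied the barcode filters, doublets, weighting of barcodes, denominator, scaling, depth, cluster makeup and clustering.

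The 10 genes and Zfp335 were named in full, pathway genes where past 1.5-fold over T-lineage barcodes with at least 100 UMIs, and the 5 genes most like Hadha among those with at least 500 UMIs. The genes, lists and markers were chosen with earlier results of these data known. Gene positions are from GENCODE M21 (GRCm38), matched by gene ID for all 10 genes, and promoters from RefSeq (GRCm38.p6), matched by symbol for all 10.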

Additional observations from a re-analysis of the deposited data

How the results depend on the processing

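No paired analysis was possible because each genotype has 1 library, and no replicate could be left out. Of 400 values computed under alternative settings, 348 kept within the counting interval of the reported value or, for counts of genes, within 1.5 times, 48 moved out of it, and 4, all of Acadvl, crossed a ratio of 1 that the reported interval had excluded. Acadvl came out at 1.02 over all kept barcodes and 1.01 over T-lineage barcodes as a mean of single-barcode CPM, at 1.09 over T-lineage barcodes with the KO clusters weighted to the WT makeup, and at 1.09 in S-phase cycling-like barcodes at resolution 1.0. Hadha stayed past 1.5-fold lower over both pools under every setting tried. Over all kept barcodes it moved to 0.539 with median-of-ratios scaling and 0.563 with barcodes thinned to 1000 UMIs. Over T-lineage barcodes it moved to 0.510 as a mean of single-barcode CPM, 0.502 with median-of-ratios scaling, 0.552 with thinning and 0.505 with the weighted makeup. That weighting left 1 gene past 1.5-fold lower (10.7% of all genes), and a ratio of 0.8 or below as the threshold gave 5 genes over either pool (24.7% and 23.5% of all genes). Median-of-ratios scaling shifts the median gene by a log2 of -0.08 over all kept and -0.07 over T-lineage barcodes. Slc25a20 lay at 1.01 with that scaling over all kept barcodes and at 0.955 without it. The alternatives of the named T clusters alone, no clusters led by granule, Mpo or C1q genes, and no barcode sequences found in both libraries were chosen after seeing the data, and under them Hadha was 0.485, 0.478 and 0.508. Another 24 values of 7 genes crossed 1 where the reported interval already held it, such as Cpt2 at 1.26 and Slc25a20 at 1.04 with the weighted makeup and, in effector Treg-like barcodes with genes centred within their library, Acadl at 0.591 and Etfa at 0.761. The cause of these shifts was not tested.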

Other observations

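The barcodes with over 5% mitochondrial UMIs, 6468 in WT and 4364 in KO with at least 300 genes, entered no comparison above. In them Hadha stood at 120 CPM in WT and 57.2 CPM in KO, a ratio of 0.476 (95% interval 0.427 to 0.531, counting error only), and Hadhb at 41.8 and 28.5 CPM, a ratio of 0.682 (0.577 to 0.803). Cpt1a had a ratio of 0.670 (0.563 to 0.795) and Acadl one of 0.715 (0.614 to 0.831), the latter with 48.1 CPM in WT and 34.4 CPM in KO. Acadm, at 19.1 and 10.3 CPM, had a ratio of 0.542 (0.413 to 0.705). Echs1 was at 33.5 and 43.3 CPM, a ratio of 1.29 (1.11 to 1.51). These barcodes were not split by lineage.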
